A study of Mus musculus with 12 samples.

Results

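Loss of STAT6 in mouse B cells stimulated without added interleukin 4 (IL-4) was examined by setting 3 STAT6 knockout control arrays against 3 wild-type control arrays, 6 of the 12 arrays of the series. The arrays were chosen by their labels alone, and all 16497 genes above background were tested. The donors were BALB/c females aged 9 weeks, and their splenic B cells were obtained by removing other cells (negative selection). Every culture, control cultures included, received an antibody to CD40 at 10 µg/ml and bacterial lipopolysaccharide (LPS) at 2 µg/ml for 4 days, with fresh medium on day 3. The wild-type control and STAT6 knockout (labelled STAT6 ko) control cultures received nothing further. The remaining 6 arrays, 3 per genotype, came from cultures with IL-4 at 25 ng/ml. They are used here for the genotype difference with IL-4, which also takes in the response to IL-4. In those 6 arrays slide and genotype cannot be told apart. The labels do not name the knockout allele or the strain of the targeted cells. They call the samples triplicates without saying that each came from its own animal, so p-values measure the spread between these samples, which may be technical.

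IL-4 binds a receptor whose kinases phosphorylate STAT6, which then enters the nucleus and binds DNA. In B cells it drives switching to IgG1 and IgE and raises CD23 and MHC class II. Cells that lack oxygen stabilise the transcription factor HIF-1, which raises the glucose transporters, the enzymes of glycolysis and a set of genes for survival in low oxygen. Activated B cells also raise glycolysis.

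Levels are log2 of the processed Cy3 intensity minus the 75th percentile of the array, so 0 is the level of a gene brighter than 75% of spots. A difference is the knockout mean minus the wild-type mean on that scale. Between 40.7% and 44% of the spots were well above background on the 6 control arrays, and no spot was saturated. Wild-type controls 1 to 3 and knockout controls 1 and 2 were on slide 1, together with the wild-type IL-4 arrays. Knockout control 3 was on slide 2 with the knockout IL-4 arrays. With slide as a block in the model, the difference without IL-4 rests on knockout controls 1 and 2. That value is given where it ends the call of a gene or list described alone.

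Stat6 RNA was lower in all 3 knockout arrays but was still detected there. The array holds 3 probes to Stat6 on chromosome 10, and the 2 that lie nearest the transcript's start are shown because they gave unlike differences. They are written 5′ to 3′ in lower case throughout, at the mm9 positions given by the files.
Probe from transcript base 300, chr10:127083983-127084042: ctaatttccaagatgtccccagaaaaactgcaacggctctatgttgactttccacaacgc
Probe from transcript base 2354, chr10:127095694-127095753: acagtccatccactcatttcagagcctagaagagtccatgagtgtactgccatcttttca

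The brightest Stat6 probe, from transcript base 3450, read 3.11, 3.23 and 3.20 in wild-type controls 1 to 3 and 1.13, 1.29 and 1.30 in knockout controls 1 to 3. The groups lay far apart, with a difference of -1.94 ± 0.08 (SE, n = 3 per group; limma adjusted p = 1.03e-06), or 3.84-fold. The probe from base 2354 read 1.36, 1.53 and 1.63 against -0.96, -0.80 and -0.54, a difference of -2.28. The probe from base 300 read -1.49, -1.57 and -1.29 against -2.25, -2.65 and -2.11, a difference of -0.88 (limma adjusted p = 0.0649 over all probes). All 3 probes stayed well above background on every knockout array. The labels do not say which part of the gene was removed, so no probe can be placed inside or outside it. With IL-4 the brightest probe differed by the same -1.94.

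Without IL-4, 194 of 16497 genes (1.18%) differed by at least 2-fold at an adjusted p under 0.05, and these are termed called. The knockout was higher for 138 of them (0.837%) and lower for 56 (0.339%). At an adjusted p under 0.05 with no fold minimum, 780 genes rose (4.73%) and 1149 fell (6.96%), 1929 in all (11.7%). The median difference of all genes was -0.04. With slide as a block 81 genes were called (0.491%), of which 67 were among the 194, 26 up and 41 down. Leaving out wild-type control 1, 2 or 3 in turn gave 97, 85 or 73 called genes, and leaving out knockout control 1, 2 or 3 gave 305, 78 or 81. For comparison, 1597 genes (9.68%) were called between the genotypes with IL-4.

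Genes of glycolysis and of the hypoxia response rose together in the knockout. Of 21 glycolysis genes tested, 17 rose and 0 fell, and 10 rose at least 2-fold, with a median difference of 1.02. Of 20 hypoxia-response genes tested, out of 23 listed, 13 rose, 1 fell and 11 rose at least 2-fold, with a median of 1.29. Over all genes 4.73% rose, 6.96% fell and the median was -0.04. The 3 knockout arrays lay above all 3 wild-type arrays for 19 of 21 glycolysis genes and 18 of 20 hypoxia genes, against 12.9% of all genes.

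Transport and the steps of glycolysis rose along the pathway. Slc2a1, the glucose transporter GLUT1, read 2.82, 2.73 and 2.67 in the wild-type controls and 3.62, 4.21 and 4.48 in the knockout controls, a difference of 1.36 (limma adjusted p = 0.0465). Slc2a3, another glucose transporter, differed by 1.31 and Hk2, the hexokinase that traps glucose in the cell, by 0.82. Pgk1, phosphoglycerate kinase, read 7.33, 7.35 and 7.34 against 8.17, 8.66 and 8.85, a difference of 1.22 ± 0.22 (SE, n = 3 per group; adjusted p = 0.0109). Wild-type arrays agreed closely for Pgk1, while every knockout array was higher and knockout control 1 was the lowest of the 3. Pkm, pyruvate kinase, differed by 1.23, Tpi1, triose phosphate isomerase, by 1.51 and Eno1, enolase, by 1.02. Ldha, which turns pyruvate into lactate, read 8.55, 8.47 and 8.44 against 9.08, 9.25 and 9.35, a difference of 0.74 (adjusted p = 0.0338). Slc16a3, the transporter that exports lactate, differed by 3.26 but missed the threshold (adjusted p = 0.0534). Gapdh at 0.24, Hk1 at 0.01 and Pfkfb4 at 0.05 did not pass the test.

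The hypoxia list showed larger differences. Bnip3, a mitochondrial protein that targets mitochondria for degradation, read 4.42, 4.19 and 4.09 in the wild-type controls and 6.08, 6.93 and 7.26 in the knockout controls, a difference of 2.53 ± 0.61 (SE, n = 3 per group; limma adjusted p = 0.0305). Egln3, an oxygen-sensing prolyl hydroxylase, read -3.46, -3.44 and -3.59 against -1.53, 0.02 and 0.57, a difference of 3.19 ± 0.76, and its second probe gave 3.1. In both genes the groups did not overlap and knockout control 1 was the lowest knockout array. Ndrg1 differed by 1.86, P4ha1, a subunit of collagen prolyl hydroxylase, by 1.69, and Pdk1, which keeps pyruvate out of mitochondria, by 1.58. Vegfa, the vascular growth factor, read 2.10, 2.15 and 2.04 against 2.75, 3.41 and 3.75, a difference of 1.2 (adjusted p = 0.0213). Ak4 at 3.49 (adjusted p = 0.056) and Ankrd37 at 2.07 (adjusted p = 0.0514) missed the threshold. The member that fell was Hif1a itself, by 0.19 on the log2 scale (adjusted p = 0.0444). HIF-1 is controlled mainly through its protein, which was not measured.

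**Figure D1:**
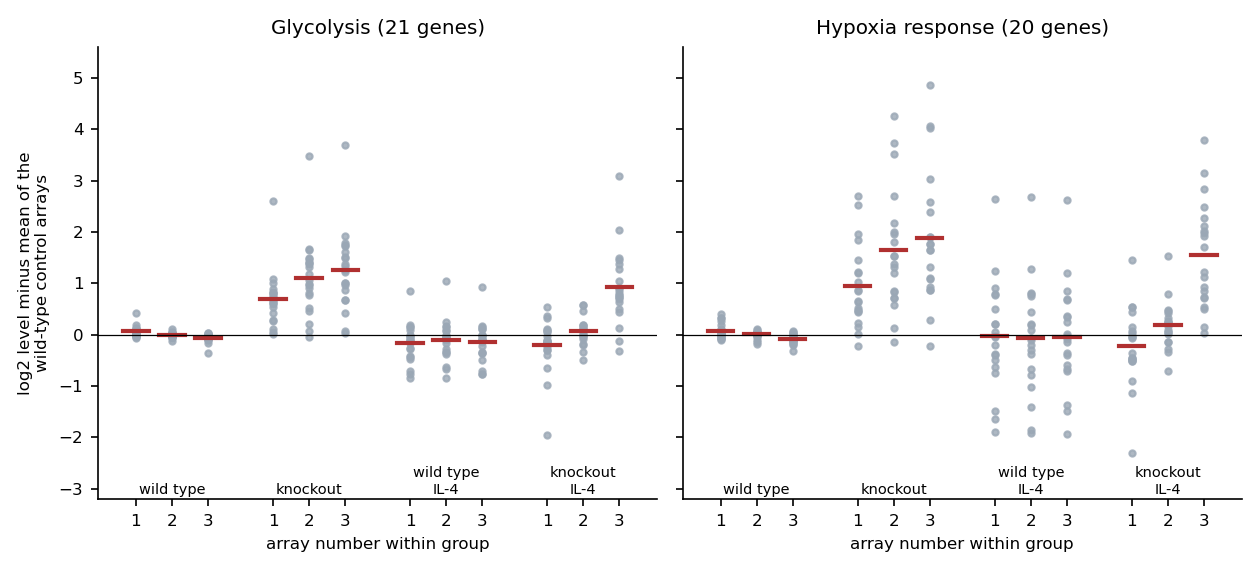
Level of each glycolysis gene (left, 21 genes) and hypoxia-response gene (right, 20 genes) on each of the 12 arrays, as log2 difference from the mean of the wild-type control arrays. Points are genes and bars are the mean of the list on that array; the 3 knockout control arrays and knockout IL-4 array 3 stand above the others.

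The rise was uneven across the knockout arrays. The mean of the hypoxia list, relative to the wild-type control mean, was 0.95, 1.64 and 1.89 in knockout controls 1 to 3 and 0.08, 0.01 and -0.08 in wild-type controls 1 to 3. The mean of the glycolysis list was 0.69, 1.10 and 1.26 against 0.07, -0.01 and -0.06. Knockout control 1 was the lowest knockout array for 19 of 21 glycolysis genes and 18 of 20 hypoxia genes. How often it was the lowest over all genes was not counted. The median SD among knockout controls was 0.27 for glycolysis and 0.47 for hypoxia genes, against 0.06 and 0.09 among wild-type controls. In the fit with that block the medians were 0.90 and 1.09, but 1 glycolysis gene (Pgk1, adjusted p = 0.0463) and 0 hypoxia genes rose, against 0.903% of all genes. At an unadjusted p under 0.05 in that limma fit the numbers were 19 of 21 and 17 of 20, against 8.09% of all genes. In a fit of the slide 1 arrays alone, without the knockout IL-4 arrays, 18 of 21 and 15 of 20 rose, against 3.22% of all genes. Leaving out wild-type control 1, 2 or 3, or knockout control 2 or 3, left 1 glycolysis gene and 0 hypoxia genes past the threshold. Leaving out knockout control 1 left 19 of each.

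Cultures with IL-4 gave the same lists smaller values. Their medians, knockout minus wild type, were 0.46 for glycolysis with 5 genes risen and 0 fallen, and 0.35 for hypoxia with 2 risen and 3 fallen, where 29.8% of all genes rose and 21.3% fell. Knockout IL-4 array 3 stood apart, as the highest of its group for 20 of 21 glycolysis genes and 18 of 20 hypoxia genes. Its hypoxia mean was 1.55, while knockout IL-4 arrays 1 and 2 gave -0.23 and 0.19 and the wild-type IL-4 arrays lay between -0.07 and -0.03. Bnip3 read 5.14, 5.04 and 5.09 in wild type with IL-4 and 3.77, 4.40 and 6.71 in the knockout with IL-4. Its genotype difference was smaller with IL-4 than without (interaction, limma adjusted p = 0.0294). Vegfa was lower in the knockout with IL-4, by -0.90, and the 2 differences were unlike each other (interaction adjusted p = 0.000904). Oxygen, cell density and glucose in the cultures are not given by the labels, and their part was not tested.

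Promoters of 3 of these genes are shown because members of the lists rose together and these 3 hold the short letters searched for in the windows below. They are the 250 bases before the RefSeq transcription start in GRCm38.p6, written 5′ to 3′ on the gene's strand, with ACGTG or GCGTG, on either strand, in capitals. Pgk1 was the glycolysis gene called with slide as a block, and Bnip3 and Egln3 were among the largest differences, so all 3 were picked after their values were seen.
Bnip3, chr7:138909507-138909756, minus strand: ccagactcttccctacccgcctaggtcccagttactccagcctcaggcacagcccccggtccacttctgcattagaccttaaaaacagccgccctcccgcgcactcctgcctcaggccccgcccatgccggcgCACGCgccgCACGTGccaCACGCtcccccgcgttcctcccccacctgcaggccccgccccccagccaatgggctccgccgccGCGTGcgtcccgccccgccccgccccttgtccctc
Pgk1, chrX:106186850-106187099, plus strand: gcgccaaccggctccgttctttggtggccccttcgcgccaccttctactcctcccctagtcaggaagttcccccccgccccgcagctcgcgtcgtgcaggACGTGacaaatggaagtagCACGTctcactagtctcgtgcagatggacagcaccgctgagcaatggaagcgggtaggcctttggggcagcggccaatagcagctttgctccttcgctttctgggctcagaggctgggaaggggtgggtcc
Egln3, chr12:54203875-54204124, minus strand: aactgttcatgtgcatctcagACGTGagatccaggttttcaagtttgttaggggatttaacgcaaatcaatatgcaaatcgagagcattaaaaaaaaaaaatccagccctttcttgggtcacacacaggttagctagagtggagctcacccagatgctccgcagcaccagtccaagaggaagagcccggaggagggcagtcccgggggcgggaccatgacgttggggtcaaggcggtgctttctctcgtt

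In windows from 250 bases before to 50 after the start, 33 of the 36 list members with a RefSeq promoter (91.7%) held ACGTG or GCGTG. The share was 67.1% of all tested genes, 69.6% of genes called higher (55 of 79) and 41.4% of genes called lower (12 of 29). This search was added after the lists had been seen, and it counted every tested list member, risen or not. The 91.7% may thus follow from how the lists were chosen and does not bear on the rise. The share of genes called higher was close to that of all tested genes. The palindrome that STAT factors bind, TTC and GAA spaced by 3 or 4 bases of any kind, stood in 16.5% of promoters of genes called higher (13 of 79), 13.8% of genes called lower (4 of 29) and 14.1% of all tested genes (1361 of 9646). A match of letters is a description of the window and not a binding site.

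Of 18 AP-1 and immediate early genes, a class that responds within minutes to signalling, 7 rose and 2 fell, with a median of 0.29. Over all genes 4.73% rose and 6.96% fell. Fosl2, an AP-1 subunit, read -2.81, -2.77 and -2.74 in the wild-type controls and -1.91, -1.16 and -1.06 in the knockout controls, a difference of 1.40 (limma adjusted p = 0.0211). Atf3, a stress-induced factor, read 1.58, 1.62 and 1.6 against 2.25, 2.78 and 3.06, a difference of 1.10. Ier3 differed by 1.78. All 3 knockout arrays were above the wild type in each of these genes, and knockout control 1 was the lowest, as in the hypoxia list. Dusp1 and Dusp2, phosphatases that switch off MAP kinases, fell by 0.30 and 0.29. Once slide was a block 0 of the 18 rose, and at an unadjusted p under 0.05 in that limma fit 10 did, against 8.09% of all genes. Without knockout control 1, 9 rose, without wild-type control 3, 1 rose, and without any other single control array 0 rose. With IL-4 the difference of Fosl2 was -2.77. Socs3, a feedback inhibitor of cytokine receptors, read 0.75, 0.88 and 0.90 against 1.5, 1.96 and 2.24, a difference of 1.05 (adjusted p = 0.00765). It kept a difference of 0.88 with slide as a block (adjusted p = 0.0199) and was -1.54 with IL-4.

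A minority of interferon-inducible genes fell, by small amounts. Of 13 interferon-inducible GTPases, 0 rose and 5 fell (38.5%, against 6.96% of all genes), with a median of -0.19. Gbp6 read -0.90, -0.81 and -0.76 in the wild-type controls and -1.58, -1.67 and -1.30 in the knockout controls, a difference of -0.69 ± 0.11 (SE, n = 3 per group; limma adjusted p = 0.00811). A second Gbp6 probe gave -0.31 (limma adjusted p = 0.267 over all probes). With IL-4 the first Gbp6 probe gave 0.24 and the second 2.73. Gbp5 differed by -0.47, Gbp3 by -0.42, Irgm2 by -0.29 and Gbp4 by -0.24. At an unadjusted p under 0.05 in limma, 0 of the 13 rose and 6 fell, where 11.2% of all genes rose and 21.7% fell, and with slide as a block 2 fell, against 1.62% of all genes. Without knockout control 1, 7 fell, without knockout control 3, 2 fell, and without any other single control array 1 fell. The count of 5 also moved with scaling, with 10 fallen when each array was scaled to its median, which moved the median of all genes to -0.22. Of 31 interferon-response genes 1 rose and 7 fell, with a median of -0.04, the same as that of all genes, and under the slide block 2 fell. Ifit1, an RNA-binding antiviral protein, read 1.25, 1.35 and 1.43 against 0.72, 0.84 and 0.82, a difference of -0.55 ± 0.06 (SE, n = 3 per group; adjusted p = 0.000982). Of 15 genes of MHC class I and peptide loading 0 rose and 5 fell (median -0.11), among them Psmb10, an immunoproteasome subunit, at -0.41, and Erap1, which trims peptides, at -0.49. At an unadjusted p under 0.05 in limma 0 rose and 8 fell. Under the slide block 0 of the 15 fell, and 7 did at an unadjusted p under 0.05, against 13.7% of all genes. Irf1, a transcription factor induced by interferon, differed by -0.34. With IL-4 several of these genes lay on the other side, with a difference of 2.97 for Ifit1 and 1.87 for Gbp5.

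The chemokines and the cytokine described next changed by less than 2-fold. Ccl5, a chemokine that attracts T cells, read 7.95, 7.94 and 7.90 in the wild-type controls and 7.18, 7.24 and 7.45 in the knockout controls, a difference of -0.64 ± 0.07 (SE, n = 3 per group; limma adjusted p = 0.000857). Ccl4, also a chemokine, read 1.72, 1.75 and 1.80 against 2.37, 2.68 and 2.76, a difference of 0.85 ± 0.10 (SE, n = 3 per group; adjusted p = 0.00136). Csf2, the cytokine GM-CSF, read 1.41, 1.41 and 1.39 against 1.01, 0.77 and 0.62, a difference of -0.61. The groups did not overlap in any of the 3 genes. With IL-4 the differences were 3.85 for Ccl5, 0.04 for Ccl4 and 5.45 for Csf2. Among the receptors, Csf2rb2 rose by 0.71 on 1 probe while its second probe gave 0.07, and Csf2ra fell by 0.57. Cxcr3 fell by 1.23 (adjusted p = 0.0402) at a low and uneven level.

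Known IL-4 and STAT6 targets of B cells moved little without IL-4. Of 21 tested 1 rose and 4 fell, against 4.73% and 6.96% of all genes, and under the slide block 1 fell. Their median was 0.03, whereas their median with IL-4 was -0.79. Icosl, a ligand that costimulates T cells, read 3.17, 2.97 and 3.00 in the wild-type controls and 2.53, 2.48 and 2.43 in the knockout controls, a difference of -0.57 ± 0.07 (SE, n = 3 per group; limma adjusted p = 0.00172). Socs1, a feedback inhibitor of cytokine signalling, differed by -0.43, Cd40 by -0.35 and Fcer2a, which encodes CD23, by -0.20. Cish, another feedback inhibitor, rose by 0.63, and its difference with IL-4 was -5.72. Ighe, the constant region of IgE, read 0.72, 0.73 and 0.67 against 0.02, 0.23 and 0.33, a difference of -0.51 (adjusted p = 0.0153) that held with slide as a block at -0.58 (adjusted p = 0.0199). Ighg1, of IgG1, rose by 0.33 on its brighter probe (adjusted p = 0.0243) while its second probe gave 0.09. With IL-4 the difference of Ighe was -4.47.

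Genes of B cell identity and of antibody secretion showed small differences. Bcl6 at -0.13 (limma adjusted p = 0.158), Ighm at -0.02 (0.808) and Igj, the J chain, at -0.05 (0.84) did not pass the test. Prdm1, which directs plasma cell formation, fell by 0.30 (adjusted p = 0.039), with an adjusted p of 0.134 with slide as a block. Of 25 mature B cell genes 0 rose and 3 fell, and of 16 plasma cell genes 0 rose and 3 fell, where 6.96% of all genes fell. At an unadjusted p under 0.05 in limma these numbers were 1 and 9, and 0 and 8, where 11.2% of all genes rose and 21.7% fell. Under the slide block 0 of either list fell, and 5 and 6 did at an unadjusted p under 0.05, against 13.7% of all genes. Of 23 mitosis genes and 27 ribosomal protein genes none passed in either direction, and at an unadjusted p under 0.05 in limma 2 mitosis genes rose and 3 fell, and 1 ribosomal protein gene rose. Il4ra, the IL-4 receptor chain, at 0.39 (0.197), and Tbx21, which encodes T-bet, at 0.98 (0.0788), did not pass.

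**Figure D2:**
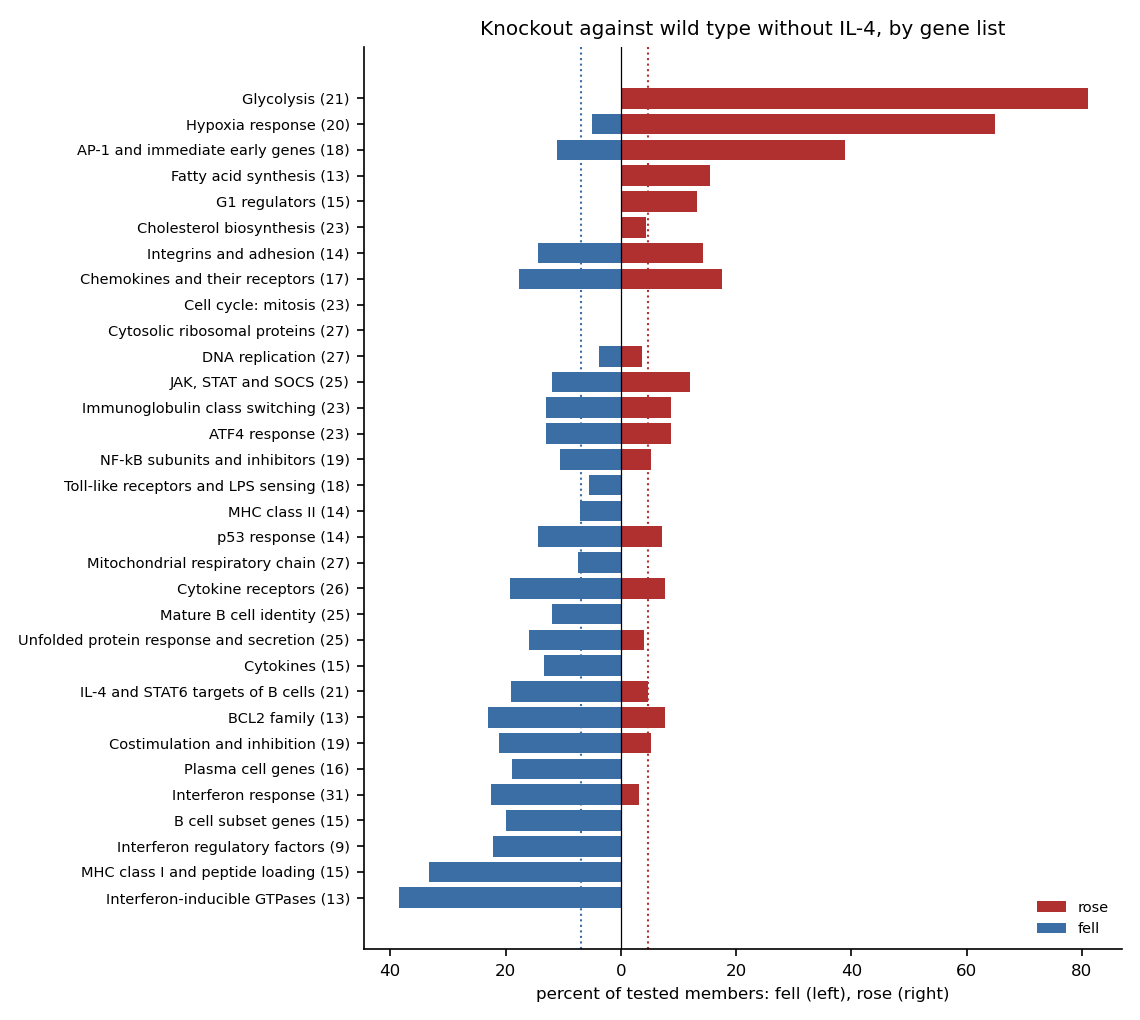
Percent of the tested members of each gene list, cell type markers left out, that fell (left) or rose (right) in the knockout without IL-4 at an adjusted p under 0.05, with the number tested in brackets. Dotted lines are the shares of all genes, 6.96% fallen and 4.73% risen; glycolysis (81.0% risen), hypoxia response (65.0%) and AP-1 genes (38.9%) lie farthest to the right.

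The cultures carried B cell markers in all arrays. The summed linear level of 8 B cell markers (2 to the power of each log2 level), all well above background, was 1220 to 1250 in the wild type and 1100 to 1160 in the knockout, and Ms4a1 fell by 0.21. Summed T cell markers gave 44 to 45.8 against 43.9 to 49.7, with Cd247, Cd8a, Cd8b1, Trat1 and Bcl11b not well above background on any control array. Of the 11 T cell markers tested Lat and Thy1 rose and Cd5 and Cd6 fell. The erythroid and platelet sum was 1.42 to 1.92 against 2.56 to 2.84, with Hba-a1 (0.67) and Hbb-b2 (0.81) risen among 4 tested and 7 others not well above background, among them Alas2, Slc4a1, Ahsp, Klf1, Ppbp and Gp9. The dendritic cell sum was 132 to 155 against 161 to 170, with Flt3 and Batf3 risen among 6 tested. The macrophage sum was 64.2 to 66.7 against 63.1 to 67.1, with Cd68 risen among 7 tested. Fewer cells of a type and less RNA per cell cannot be told apart in these cultures. The sum for natural killer and cytotoxic cells was 5.64 to 6.47 against 5.12 to 5.58. Of its 9 markers 6 were not well above background on any control array, and 0 of 4 tested rose or fell. The neutrophil, mast cell and stroma sums overlapped between the genotypes. The erythroid, dendritic, B cell and natural killer sums separated the genotypes as the hypoxia list did, and their part in that difference was not tested.

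Most genes that stayed called with slide as a block had the same sign with IL-4. Of the 41 lower genes in that set, 37 had the same sign with IL-4 and 28 were called there, with medians of -1.37 without and -1.47 with IL-4. Of the 26 higher genes, 22 had the same sign and 16 were called, with medians of 1.61 and 1.22. Of the 112 higher genes lost with the block, 86 had the same sign and 16 were called, with medians of 1.32 and 0.50. Their median SD was 0.46 among knockout controls and 0.11 among wild-type controls, against 0.23 and 0.20 for the 26 higher genes that stayed called. These spreads enter the test that sorted the genes. Of the 112, knockout control 1 was the lowest knockout array for 103, and for 114 of all 138 genes called higher. The block fit rests on knockout controls 1 and 2, so the 103 was in part fixed by the sorting. The share over all genes was not counted. The 6 IL-4 arrays share no array with the control comparison. Both comparisons nevertheless come from 1 fit and use the same spread per gene. The numbers called with IL-4 were thus in part fixed by the sorting. In all, 153 of the 194 genes had the same sign with IL-4 and 67 were called there with that sign. Over all genes 9.68% were called with IL-4 in either direction, and the share with the same sign was not counted. Of the 194, 73 differed between the conditions (interaction, against 10.6% of all genes).

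**Figure D3:**
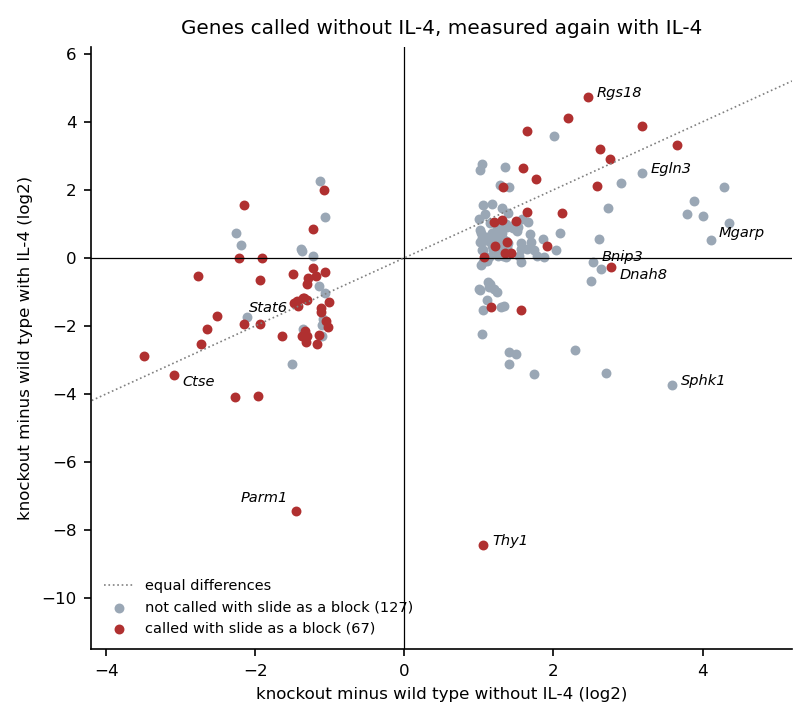
Knockout minus wild type without IL-4 (horizontal, log2) and with IL-4 (vertical, log2) for the 194 genes called without IL-4. Red points are the 67 genes also called with slide as a block; Ctse and Stat6 lie near the line of equal differences, while Sphk1 and Thy1 change sign.

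Among genes with a symbol that were above background in both groups, and by the brightest probe of each gene, the largest fall was that of Ctse, cathepsin E, an aspartic protease of the endosome encoded on chromosome 1. It read 1.99, 1.95 and 1.94 in the wild-type controls and -1, -1.15 and -1.21 in the knockout controls, a difference of -3.09 ± 0.09 (SE, n = 3 per group; limma adjusted p = 4.22e-08), or 8.49-fold. With IL-4 it was -3.43. Arl2bp, a binding partner of the small GTPase ARL2, on chromosome 8, read 4.57, 4.62 and 4.53 against 1.82, 1.84 and 1.87, a difference of -2.73 ± 0.05 (SE, n = 3 per group; adjusted p = 1.17e-09). H2-Q5, a nonclassical MHC class I gene on chromosome 17, read 4.75, 4.88 and 4.85 against 3.43, 3.41 and 3.57, a difference of -1.36. Its sequence is close to those of other H2-Q genes, so the probe may also bind their RNA. Eaf2, a transcription elongation factor partner, read 7.86, 7.77 and 7.89 against 6.74, 6.64 and 6.60, a difference of -1.18. Parm1 read 0.19, 0.14 and 0.24 against -0.74, -1.27 and -1.77, a difference of -1.45, and was -7.43 with IL-4. Saa3, Klra1, Rab3gap1 and Ptprv also fell, by 1.35, 1.33, 1.31 and 1.48. In each of Ctse, Arl2bp, H2-Q5, Eaf2 and Parm1 the groups did not overlap.

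Among the rises called with slide as a block was Daf2, a regulator of complement on chromosome 1. It read -0.95, -0.70 and -1.12 in the wild-type controls and 1.74, 1.69 and 1.57 in the knockout controls, a difference of 2.59 ± 0.12 (SE, n = 3 per group; limma adjusted p = 1.52e-06), and was 2.10 with IL-4. Rgs18, which limits signalling by G proteins, read -2.51, -2.47 and -2.32 against 0.22, 0.18 and -0.31, a difference of 2.46, and 4.74 with IL-4. Rnpep, an aminopeptidase, read 1.73, 1.97 and 1.94 against 3.70, 3.50 and 3.36, a difference of 1.64. In each of these genes the groups lay apart. Jag2, a Notch ligand, differed by 1.56 without IL-4 and -1.52 with it. Isoc2b rose by 1.5, Cideb by 1.43, Lrig3 by 1.32, Pqlc1 by 1.31 and Nefh, a neurofilament subunit, by 1.2.

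Larger but uneven rises lost their calls with slide as a block. Rgs11, another regulator of G proteins, read -1.65, -2.01 and -2.41 in the wild-type controls and 1.11, 2.68 and 3.02 in the knockout controls, a difference of 4.29 ± 0.96 (SE, n = 3 per group; limma adjusted p = 0.0263, and 0.0955 with the block). Mgarp, a mitochondrial protein, read -1.18, -1.97 and -2.06 against 1.44, 2.55 and 3.12, a difference of 4.11 (adjusted p = 0.0304, and 0.108). P4ha2, of the hypoxia list, another subunit of collagen prolyl hydroxylase, read -2.92, -3.27 and -3.57 against -0.72, 1.00 and 1.6, a difference of 3.88 (adjusted p = 0.041, and 0.139). In these genes every knockout array was above every wild-type array, and knockout control 1 was the lowest knockout array. Cox7a1, a subunit of cytochrome c oxidase, rose by 2.90 (adjusted p = 0.027, and 0.0999).

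Some genes were not well above background in any array of a group, so only a lower bound of the fold can be given. The bound sets the bright group's mean against, per dim array, the higher of the lowest signal called well above background and the dim probe's own signal. Knockout levels were at least 6.55-fold higher for Smtnl2, at least 5.82-fold for Sphk1, a kinase that makes sphingosine 1-phosphate, at least 4.43-fold for Tmem74b, at least 4.26-fold for Apold1 and at least 2.29-fold for Tnnt2, cardiac troponin T. They were at least 2.37-fold lower for Rpl39l, 2.35-fold for Lct, 2-fold for Msrb3, 1.75-fold for Tgfbi and 1.69-fold for Clec4n. Smtnl2, Sphk1, Tmem74b, Apold1, Tgfbi and Clec4n lost their calls with the slide block (adjusted p of 0.161, 0.143, 0.0763, 0.0592, 0.0547 and 0.054). Of the 194 called genes 38 have such a bound.

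In the main fit called genes lay densely near Stat6. Within 10 Mb of it on chromosome 10, 8 of 123 tested genes (6.5%) were called, 6 of them (4.88%) with slide as a block, and 5 were called with the same sign with IL-4. Among placed genes outside this window and the chromosome 1 region below, 166 of 16087 (1.03%) were called and 59 (0.367%) with the block. Of those 166, 46 were called with the same sign with IL-4. Stat6 itself is among the 8. The others were Msrb3, a methionine sulfoxide reductase, at -6.87 Mb from Stat6, Rassf3 at -6.24 Mb, Srgap1, a regulator of small GTPases, at -5.87 Mb, Lrig3 at -1.64 Mb, Xrcc6bp1 at -0.79 Mb, Gls2, a glutaminase, at 0.56 Mb, and C78653 at -8.64 Mb. Xrcc6bp1 read -1.04, -0.91 and -1.16 in the wild-type controls and -3.82, -2.76 and -2.99 in the knockout controls, a difference of -2.15 (limma adjusted p = 0.000715), and -1.94 with IL-4. Srgap1 read -5.26, -5.94 and -5.33 against -2.75, -2.64 and -2.86, at least 2.09-fold higher. The groups were well apart in both. Rassf3 differed by -1.07 and Lrig3 by 1.32. With the block Gls2 (1.88, then adjusted p = 0.105) and C78653 (1.11, then 0.11) lost their calls. The count near Stat6 also moved with the processing. With another background correction (normexp) 1 gene was called in the window, of 100 called in all. The deposited values gave 3 of 105, and probes above background on all 12 arrays gave 3 of 126.

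A denser run of called genes lay on chromosome 1 between 130 and 140 Mb in mm9, a region noticed after its values were seen, so it has no test. Of its 101 tested genes 16 (15.8%) were called, 8 higher and 8 lower. Under the slide block 12 (11.9%) were called. Of the 16, 15 were called with the same sign with IL-4, against 46 of the 166 called outside both regions. It holds Ctse, Daf2, Lct, Ptprv, Rnpep and Tnnt2, described above. Ipo9, a nuclear import receptor, read 0.70, 0.69 and 0.75 in the wild-type controls and -0.78, -0.71 and -0.69 in the knockout controls, a difference of -1.43 ± 0.04 (SE, n = 3 per group; limma adjusted p = 4.22e-08), and -1.40 with IL-4. Mdm4, an inhibitor of p53, differed by -1.12, Pik3c2b, a lipid kinase, by 1.29 and Etnk2, an ethanolamine kinase, by 1.05. Other probes of Pik3c2b gave 0.45 and -0.13. With the block Mdm4 kept its call, while Pik3c2b (1.08, adjusted p = 0.0999) and Etnk2 (0.82, under 2-fold) lost theirs. Chil1, a chitinase-like protein, was at least 1.45-fold lower. Higher and lower genes were interleaved. Sequence carried along with a targeted allele from another strain was not tested, because the labels do not give the origin of the allele.

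**Figure D4:**
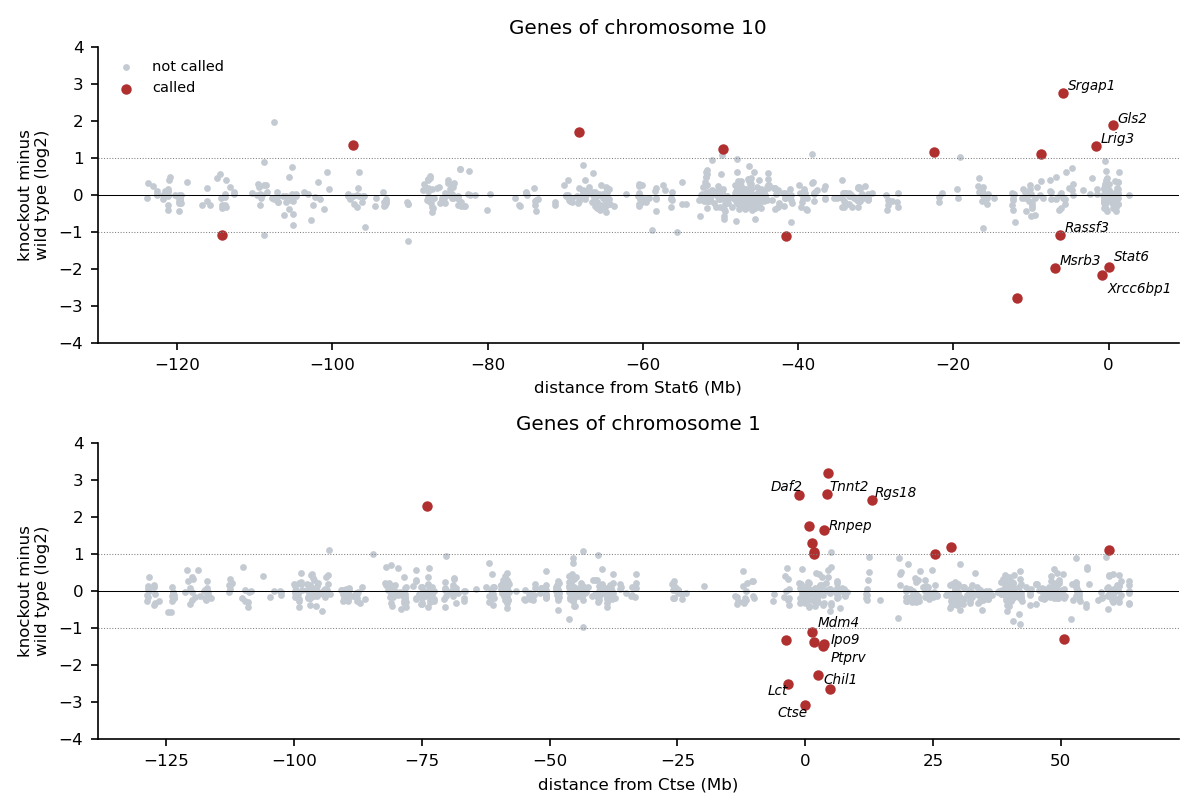
Knockout minus wild type without IL-4 (log2) for tested genes of chromosome 10 by distance from Stat6 (top) and chromosome 1 by distance from Ctse (bottom), in Mb; red points are called genes and dotted lines mark 2-fold. In the main fit called genes gather near Stat6 (8 of 123 within 10 Mb) and near Ctse (16 of 101 between 130 and 140 Mb).

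Probes to different parts of a transcript did not always move alike. The Arl2bp probe from transcript base 1918 fell by 2.73, while the probe from base 674 read 2.49, 2.65 and 2.60 in the wild-type controls and 2.37, 2.28 and 2.21 in the knockout controls, a difference of -0.29. For Etnk2 the probe from base 2186 rose by 1.05, while the probe from base 626 read 1.30, 1.23 and 1.07 against -2.92, -2.56 and -1.5, a difference of -3.52. All 3 knockout arrays were thus below the wild type at the Etnk2 probe from base 626 and above it at that from base 2186. A dimmer Etnk2 probe, from base 927, gave 0.82 and was not well above background on any wild-type control array. For Mdm4 the difference was -1.12 from base 3426 and 0.05 from base 1445. For Eaf2 the difference was -1.18 from base 1466 and -0.30 from base 893. For Dnah8 the difference was 2.77 at base 14523 and -0.76 at base 13051. It was -1.38 at base 2232, where no control array was well above background. Both probes of Ptprv were lower in the knockout (-1.48 and -1.89) and both probes of Egln3 higher (3.19 and 3.1). For Arl2bp, Etnk2, Mdm4, Eaf2 and Dnah8 a difference at 1 probe does not give the level of the whole transcript. The same holds for Gbp6, Csf2rb2 and Pik3c2b, whose probes are given above.

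**Figure D5:**
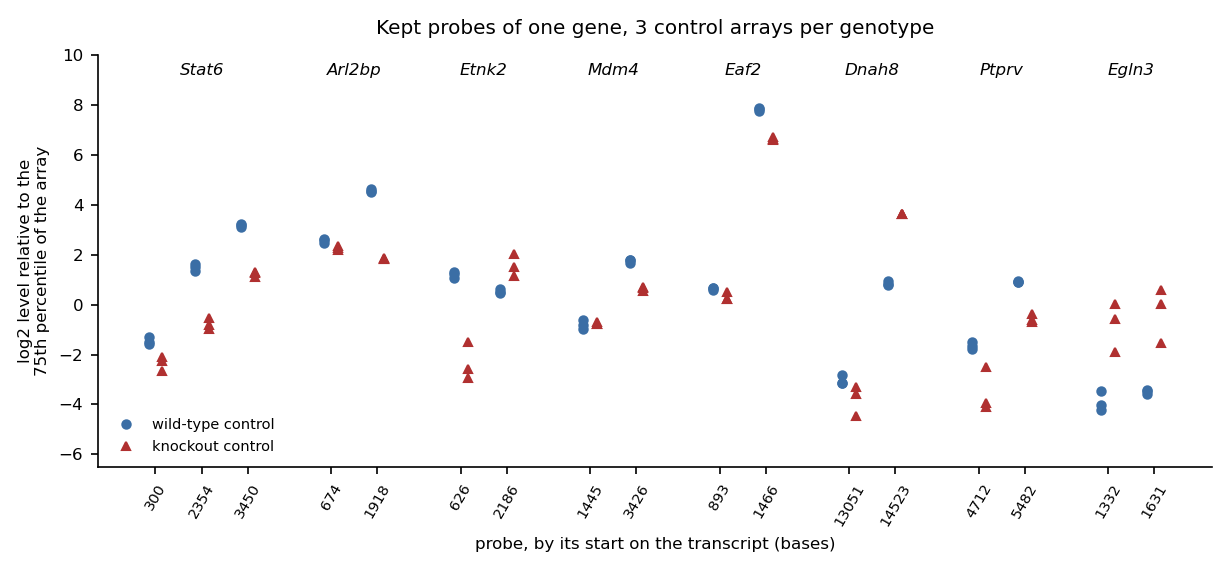
Log2 level of each kept probe of 8 genes on the 3 wild-type (circles) and 3 knockout (triangles) control arrays, labelled by the probe's start on the transcript in bases. The probes of Arl2bp, Etnk2, Mdm4, Eaf2 and Dnah8 disagree on the difference, while those of Stat6, Ptprv and Egln3 lie on the same side.

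In some called genes the wild-type control arrays stood apart from the other 9 arrays. Dnah8, an axonemal dynein chain, read 0.94, 0.81 and 0.83 in the wild-type controls. It read 3.62, 3.63 and 3.63 in the knockout controls, 3.27, 3.16 and 3.18 in wild type with IL-4 and 2.98, 2.86 and 2.92 in the knockout with IL-4. For Dnah8 the knockout controls thus also stood apart, above all 9 others. Ren2, a renin gene, read 0.91, 0.72 and 0.57 in the wild-type controls and between -1.37 and -0.94 on the other 9 arrays. Of the 138 genes called higher, the wild-type control arrays lay below all 9 others in 26 (18.8%, against 3.78% of all genes). The knockout control arrays lay above all 9 others in 30 (21.7%, against 2.63%). Of the 56 called lower, the wild-type control arrays lay above all 9 others in 20 (35.7%, against 6.76%). The knockout control arrays lay below in 11 (19.6%, against 6.47%). The control groups do not overlap in any called gene, so shares above those of all genes were in part fixed by the calling. Among all 2128 genes with the knockout controls higher and no overlap, wild type lay below in 623 and knockout above in 434. Among all 4186 with the knockout controls lower and no overlap, wild type lay above in 1115 and knockout below in 1068.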

How the data were processed

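RNA from 12 cultures was hybridised to 1-colour Agilent arrays. Per the file headers, Feature Extraction 10.7.3.1 gave background-subtracted, detrended Cy3 intensity per spot, with mm9 positions. The authors' deposited gene table holds log2 values, quantile normalized per its first line, and was used as an alternative. Here log2(processed signal) minus the array's 75th percentile was averaged per probe, without outlier spots. A probe was kept (22940 were) if some group had it well above background in all 3 of its arrays, and the brightest represented its gene. RefSeq updated symbols for 28026 of 29796 accession probes. Limma 3.58.1 in R 4.3.3 fitted 4 group means over the 12 arrays, with Benjamini-Hochberg adjustment over 16497 genes, and was tested on simulated data. The number of arrays limits the precision. Named genes were fixed ones, the largest differences in each direction (called with and without slide as a block, or dim), and list members; some genes fixed by that rule are not reported here. Members, lists and the motif search were chosen with earlier results of these data known. Alternatives covered slide, single arrays, scaling, background, filters, probes, variance and deposited values. Figures used matplotlib 3.10.9.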

Additional observations from a re-analysis of the deposited data

Results flagged for a closer look

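The genotype difference with IL-4 was unlike that without IL-4 for 35 of 114 genes described, against 10.6% of all genes. This is by the interaction term in limma at an adjusted p under 0.05 and at least 2-fold. Many of these genes were named for their difference without IL-4, which is itself a term of the interaction. The values below are the difference with IL-4 minus the difference without. Among genes of IL-4 and cytokine signalling it was -6.35 for Cish, -3.17 for Il4ra, -2.59 for Socs3, -1.53 for Socs1 and 2.75 for Icosl. For the antibody genes it was -3.96 for Ighe, -2.59 for Ighg1 and 2.38 for Igj, and for the factors that direct B cell fate -1.56 for Bcl6, 1.13 for Prdm1 and 3.8 for Tbx21. Interferon-induced genes gave 3.52 for Ifit1, 2.93 for Gbp3, 2.35 for Gbp5 and 2.25 for Oasl1. Secreted signals and a chemokine receptor gave 6.06 for Csf2, 4.49 for Ccl5 and 2.08 for Cxcr3. In the hypoxia and glycolysis lists it was -2.66 for Bnip3, -2.10 for Vegfa and -1.16 for Pfkp, and for the AP-1 subunit Fosl2 it was -4.17.

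Among the other genes the largest value was -9.49 for Thy1, which was not well above background on any wild-type control array. Sphk1 gave -7.34, Parm1 -5.98, Apold1 -3.17, Jag2 -3.08, Dnah8 -3.05, Msrb3 -2.10, Gls2 -1.85, Cideb -1.30 and Mrgprg -1.19. In the other direction Rgs18 gave 2.29, Ren2 1.89 and Clec4n 1.57. All knockout IL-4 arrays were on slide 2 and all wild-type IL-4 arrays on slide 1, so slide enters these values.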

How the results depend on the processing

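The count of called genes moved with the choice of arrays and of background. With slide as a block there were 81 called genes, 32 higher, with 1 glycolysis, 0 hypoxia and 0 AP-1 genes risen and 2 interferon GTPases fallen. With slide as a random block (correlation 0.167) 8 hypoxia genes rose. The slide 1 arrays alone, and the 6 control arrays alone, each gave 3 fallen GTPases. Scaling to the median gave 130 lower genes and 10 fallen GTPases, with a median of all genes of -0.22, and 47.2% of called genes were higher against 71.1%; quantile normalization gave 60.1%. Normexp background gave 100 called, 84 higher, 16 lower, 1 near Stat6 and 7 in the chromosome 1 region. The authors' deposited values gave 105, 86, 19, 3 and 6, with 3 GTPases fallen. No filter on dim probes gave 83 called, 41 higher, 1 glycolysis, 0 hypoxia and 0 AP-1 genes risen and 1 GTPase fallen. Probes above background on all 12 arrays gave 126 called, 23 lower, 3 near Stat6 and 8 in the chromosome 1 region. With no fold minimum there were 1929 genes, 780 higher and 1149 lower, 31 near Stat6 and 32 on chromosome 1. A 5 Mb window held 4 called genes and a 20 Mb window 9. With the 4-base spacing of the STAT palindrome alone the promoter shares were 5.06% for genes called higher, 6.90% lower and 6.49% of all. Causes of these shifts were not tested, except that fewer genes were tested under the stricter filter.

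Leaving out 1 control array gave 73 to 305 called genes, 32 to 222 higher, 40 to 83 lower, 6 to 9 near Stat6 and 12 to 16 on chromosome 1. It gave 1 to 19 glycolysis, 0 to 19 hypoxia and 0 to 9 AP-1 genes risen and 1 to 7 GTPases fallen. The replicate block gave 189 called genes, 134 higher and 55 lower; same-numbered arrays correlated at -0.158, -0.033 and -0.104, so the numbers do not pair them. Signs turned for Igj (0.11 with the slide block and in slide 1 alone) and Etnk2 (-0.16 with the deposited values, -0.55 with the mean of probes). Without 1 array Igj lay between -0.2 and 0.11. Signal over background limits the dim genes, which were given as bounds.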
